A study of Mus musculus with 2 samples.

Results

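The genes described are 10 members of the costimulatory and checkpoint ligand-receptor pairs between antigen-presenting cells and T cells, taken by symbol from the 31053 genes of both count matrices; all 10 were present. The 6 ligand-side members are Cd80, Cd86, Cd40, Cd274 (PD-L1), Pdcd1lg2 (PD-L2) and Icosl, and the 4 T cell side members are Cd28, Ctla4, Icos and Cd40lg. Single-cell RNA was measured in colon cells of bone marrow chimeras, in which CD45.2 donor marrow of either IL-10R KO mice (KO) or IL-10R/CerS2 DKO mice (DKO) had been engrafted into CD45.1 recipients. Donor blood cells of both groups thus lack the IL-10 receptor, in the study an Il10rb knockout, and those of the DKO group also lack ceramide synthase 2 (Cers2), while cells that the recipient keeps carry neither deletion. Colon cells were released with collagenase D and sorted for CD11b, CD11c and CD64, a gate that the methods describe as meant to remove lymphocytes of both kinds and neutrophils. There was 1 library per genotype, and the number of mice behind each, and their age, are not given in the sources used here. The difference between genotypes can therefore not be told apart from a difference between mice, sorts or libraries, no test was made, and every interval is a 95% interval of counting error only.

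A T cell that has met its antigen needs a further signal to be activated. CD80 and CD86 on the presenting cell give that signal through CD28, and CTLA-4, which binds the same ligands more tightly, holds it back. PD-L1 and PD-L2 restrain T cells through PD-1, ICOS ligand sustains them through ICOS, and CD40 works in the other direction: CD40 ligand on the T cell activates the presenting cell. In the colon, where macrophages and dendritic cells lie close to the microbiota, these pairs help to set the balance between tolerance and inflammation.

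The KO library held 2584 cell barcodes, of which 2443 were kept, with a median of 4715 UMIs (unique molecular identifiers, each standing for 1 captured RNA molecule) per cell. The DKO library held 742, of which 730 were kept, with a median of 3722 UMIs, and the 2 libraries shared 1 barcode sequence. Cers2 gave 552 UMIs in 447 KO cells but only 2 UMIs, in 2 cells, of the DKO library, as the labels state. Il10rb gave 74 KO and 14 DKO UMIs, but whether the 3′ reads lie outside the deleted part was not examined, so this count checks nothing. Both samples are labelled colon macrophage, yet cells with markers of other types were present. Cells were gated by how many different marker genes had a UMI, and the monocyte/macrophage gate held 55.3% of KO cells (1351) and 38.5% of DKO cells (281). The dendritic cell gate held 67 KO and 38 DKO cells, the neutrophil gate 135 and 40, the B cell gate 198 and 156, and the T cell gate 283 and 105. Median UMIs per cell differed little between libraries within the monocyte/macrophage (5685 in KO and 5563 in DKO), neutrophil (1677 and 1635), B cell (2492.5 and 2515.5) and T cell gates (3842 and 3400). In the dendritic cell gate they were 8149 and 10004.5.

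The members split between presenting cells and T cells. Of the UMIs of Cd28, Ctla4, Icos and Cd40lg, between 89.3% and 96.4% lay in T-gated cells in either library. The monocyte/macrophage gate held more UMIs of each of the 6 ligand genes than any other gate, from 61.7% (Pdcd1lg2) to 82.5% (Cd40) of their KO UMIs and from 42.9% (Pdcd1lg2) to 73.2% (Cd40) of their DKO UMIs. Levels are given below as CPM, the UMIs of a gene per 1000000 UMIs summed over the cells of a gate.

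Each ligand had its own order of levels among the gates. Cd274 was highest in the neutrophil gate, at 1753 CPM (1599 to 1917) in KO against 800 CPM (606 to 1036) in DKO. It followed in monocytes/macrophages (381 and 247 CPM), dendritic cells (208 and 117 CPM), T cells (63.6 and 59.6 CPM) and B cells (34.1 and 38.8 CPM). In KO only the intervals of the T and B cell gates overlapped, and in DKO those of the dendritic and T cell gates did as well. Pdcd1lg2, the other PD-1 ligand, had its highest value in dendritic cells, at 90.3 CPM (68.4 to 117) in KO against 43.4 CPM (25.3 to 69.5) in DKO, though this overlapped neutrophils in KO and every other gate in DKO. Its levels in neutrophils (47.9 and 28.1 CPM), T cells (44.2 and 23.8 CPM) and monocytes/macrophages (40.6 and 23.0 CPM) did not differ beyond counting error.

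The CD28 ligands differed from each other in B cells and neutrophils. Cd86 was highest in dendritic cells (317 CPM in KO against 460 CPM in DKO), then in monocytes/macrophages (285 and 352 CPM) and B cells (160 and 299 CPM), and was low in neutrophils (44.2 and 14.0 CPM). The intervals of dendritic cells and monocytes/macrophages overlapped in KO and not in DKO. Cd80 showed the reverse between neutrophils and B cells: it reached 210 CPM in KO against 182 CPM in DKO neutrophils, against 6.20 and 9.12 CPM in B cells. In the T cell gate, which serves as the background for the genes of presenting cells, Cd86 was at 5.99 and 0 CPM and Cd80 at 7.48 and 4.77 CPM. Cd40 was at 182 and 175 CPM in monocytes/macrophages and at 168 and 179 CPM in dendritic cells, whose intervals overlapped. It was at 26.3 and 22.8 CPM in B cells and gave 2 and 1 UMIs in T cells. Icosl was sparse everywhere, at 13.2 and 12.99 CPM in monocytes/macrophages, and the order of its levels among the myeloid and B cell gates lay within counting error.

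**Figure D1:**
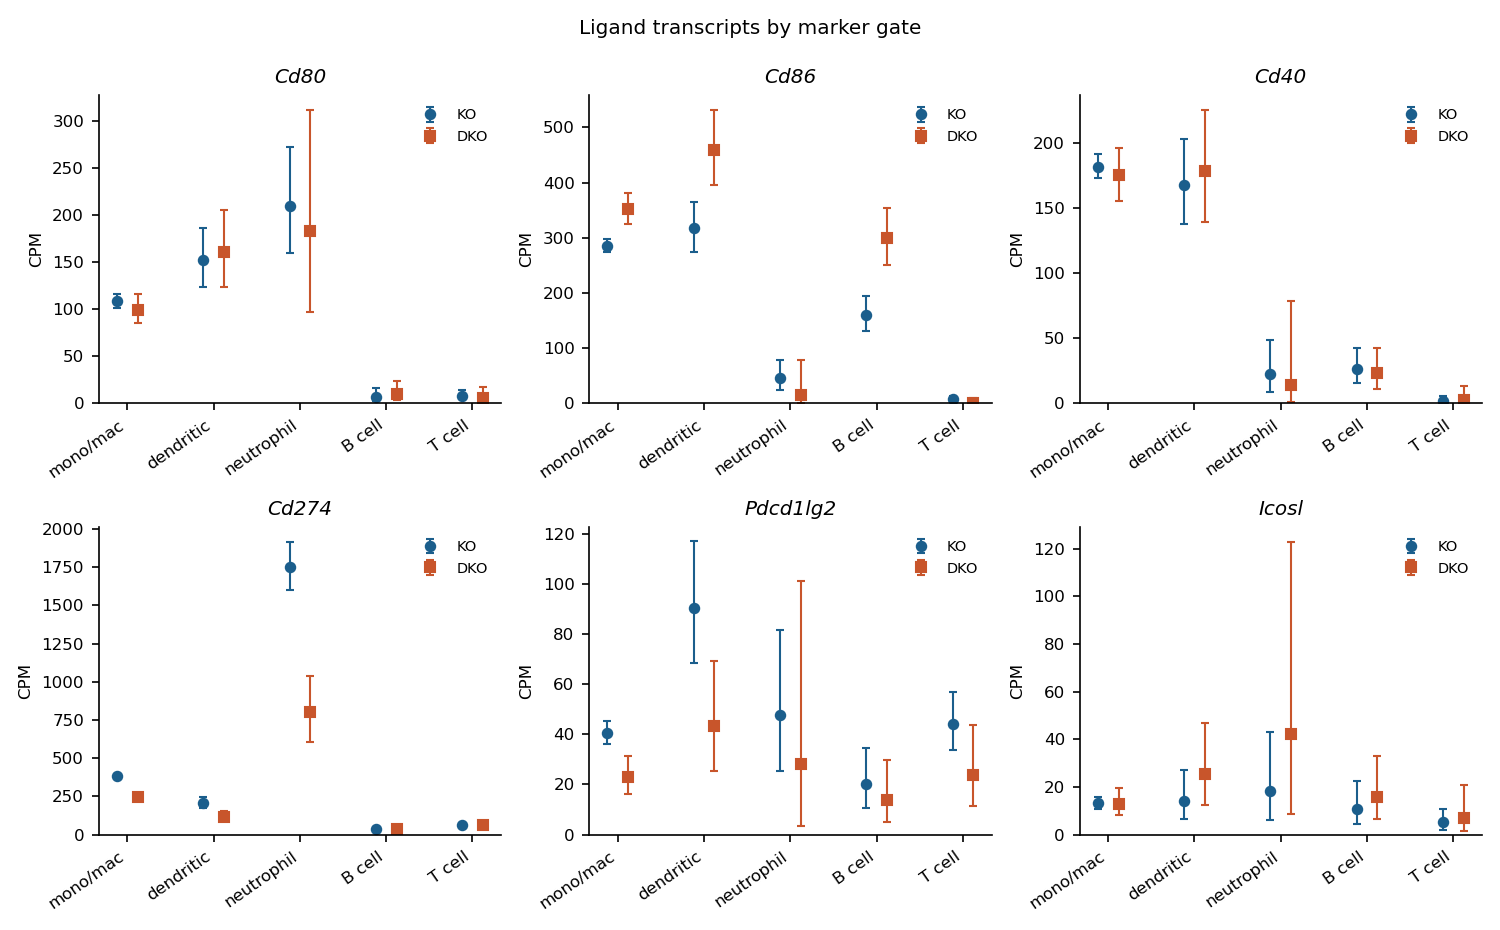
Level of each ligand gene in CPM (vertical axes from 0, each panel with its own scale) in the 5 marker gates, for the KO library (circles) and the DKO library (squares); bars are exact 95% Poisson intervals of the summed UMIs. Cd274 peaks in the neutrophil gate (1753 CPM in KO, 800 CPM in DKO), while Cd86 is the only ligand with a B cell level of 160 CPM or more.

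In the monocyte/macrophage gate, the DKO library had less of both PD-1 ligands than the KO library, while the CD28 ligands and Cd40 lay within 1.5-fold. Of the 6 ligands, 0 were at least 1.5-fold higher and 2 at least 1.5-fold lower in DKO, against 12.4% and 8.72% of the 9676 genes that reached 20 UMIs in the libraries together. The median log2 ratio of DKO over KO was -0.09 over the ligands and 0.08 over all those genes. Scaling by TMM, which assumes that most genes do not differ, shifted every ratio in this gate by -0.11 and turned the split of all genes from 1197 higher and 844 lower to 885 higher and 1092 lower. The directions of Cd274, Pdcd1lg2 and Cd86 were the same under it.

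Cd274 had 3061 UMIs in KO and 419 in DKO monocytes/macrophages, or 381 CPM (367 to 395) and 247 CPM (224 to 272), giving a log2 ratio of -0.62 (interval -0.77 to -0.48). A Cd274 UMI was present in 69.7% of the KO (67.1 to 72.1) and 56.9% of the DKO cells (50.9 to 62.8). After each cell was thinned to 1500 UMIs, with 43 KO and 11 DKO shallower cells left out, the shares were 38.5% and 31.1%. The thinned share in B cells, where Cd274 was lowest, was 3.17% and 4.64%, so the myeloid shares stood above free RNA of that size. Pdcd1lg2 had 326 KO and 39 DKO UMIs, or 40.6 and 23.0 CPM, giving a log2 ratio of -0.80 (interval -1.34 to -0.34). Its thinned share was 5.12% of KO and 1.48% of DKO cells, beside 4.23% and 2.65% in B cells. The share of positive cells thus lay near that of B cells, whose own expression was not separated from free RNA. Only the summed level is read here, and its point value was lower in DKO in the other gates too. T cells had 44.2 and 23.8 CPM (log2 -0.83, -2.02 to 0.09) and dendritic cells 90.3 and 43.4 CPM. Neutrophils had 47.9 and 28.1 CPM (interval of the log2 ratio -3.96 to 1.37) and B cells 20.1 and 13.7 CPM (-2.24 to 0.94), each on fewer than 20 UMIs. Among these other gates only dendritic cells had an interval that excluded 0 (-1.93 to -0.26). Beyond counting error, the lower Pdcd1lg2 level was thus shared with dendritic cells, and the remaining gates could not show it.

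The activating ligands moved less. Cd86 was at 285 CPM (274 to 297) in KO against 352 CPM (324 to 381) in DKO, giving a log2 ratio of 0.30 (interval 0.17 to 0.43). Its interval excluded 0 but stayed below the 1.5-fold line. Cd80 had 867 and 168 UMIs and a log2 ratio of -0.12 (-0.37 to 0.12). Cd40, the receptor through which T cells activate the presenting cell, had 1464 and 297 UMIs and a log2 ratio of -0.05 (-0.24 to 0.13). Icosl had 106 and 22 UMIs and a log2 ratio of 0.00, with an interval from -0.76 to 0.65 that allows a change past 1.5-fold either way.

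Part of the Cd274 difference lay in KO cells of an Arg1 sub-gate. Cells of the monocyte/macrophage gate were divided into an Arg1 sub-gate (at least 2 UMIs of Arg1, which encodes arginase-1), a C1q sub-gate (complement genes of mature macrophages), a monocyte sub-gate and the rest. The Arg1 sub-gate held 132 KO cells and 0 of 281 DKO cells, which allows a share of up to 1.07%. Cd274 was at 741 CPM (686 to 800) there and was detected in 117 of the 132 cells. Cd80 was also highest in these cells among the monocyte/macrophage sub-gates, at 188 CPM in 85 cells, and so was Pdcd1lg2, at 91.6 CPM in 43 cells. Cd86 took the opposite course, with 139 CPM in the Arg1 sub-gate against 329 CPM in KO C1q cells and 258 CPM in KO monocytes, and its interval there (115 to 165) met neither of theirs.

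Outside the Arg1 sub-gate the lower Cd274 level of the DKO library was smaller but had the same direction in each of the other sub-gates. In C1q cells it was at 343 CPM in KO against 272 CPM in DKO, giving a log2 ratio of -0.34 (interval -0.55 to -0.14). In monocytes it was at 316 and 195 CPM, giving a log2 ratio of -0.69 (interval -1.02 to -0.39), and in the remaining cells at 344 and 263 CPM, giving a log2 ratio of -0.38 (interval -0.73 to -0.06). Only the monocyte value passed 1.5-fold. With the Arg1 sub-gate left out, the whole gate gave -0.44 for Cd274 and 0 of the 6 ligands passed 1.5-fold, with Pdcd1lg2 at -0.55, just short of it. The Cd274 call was also lost with 1 more marker asked of each cell (-0.55), the Arg1 cells included. The Pdcd1lg2 level in C1q cells was 42.9 CPM in KO against 28.0 CPM in DKO, giving a log2 ratio of -0.59, just past 1.5-fold, with an interval from -1.30 to 0.01. Cd86 in C1q cells was at 329 and 401 CPM, giving a log2 ratio of 0.29 (interval 0.11 to 0.46). Cd40 had log2 ratios of 0.04 (-0.21 to 0.27) in C1q cells, -0.46 (-0.91 to -0.06) in monocytes and -0.21 (-0.65 to 0.19) in the remaining cells. Without the top cell of each library these were -0.17, -0.59 and -0.34, so the monocyte value then passed 1.5-fold.

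**Figure D2:**
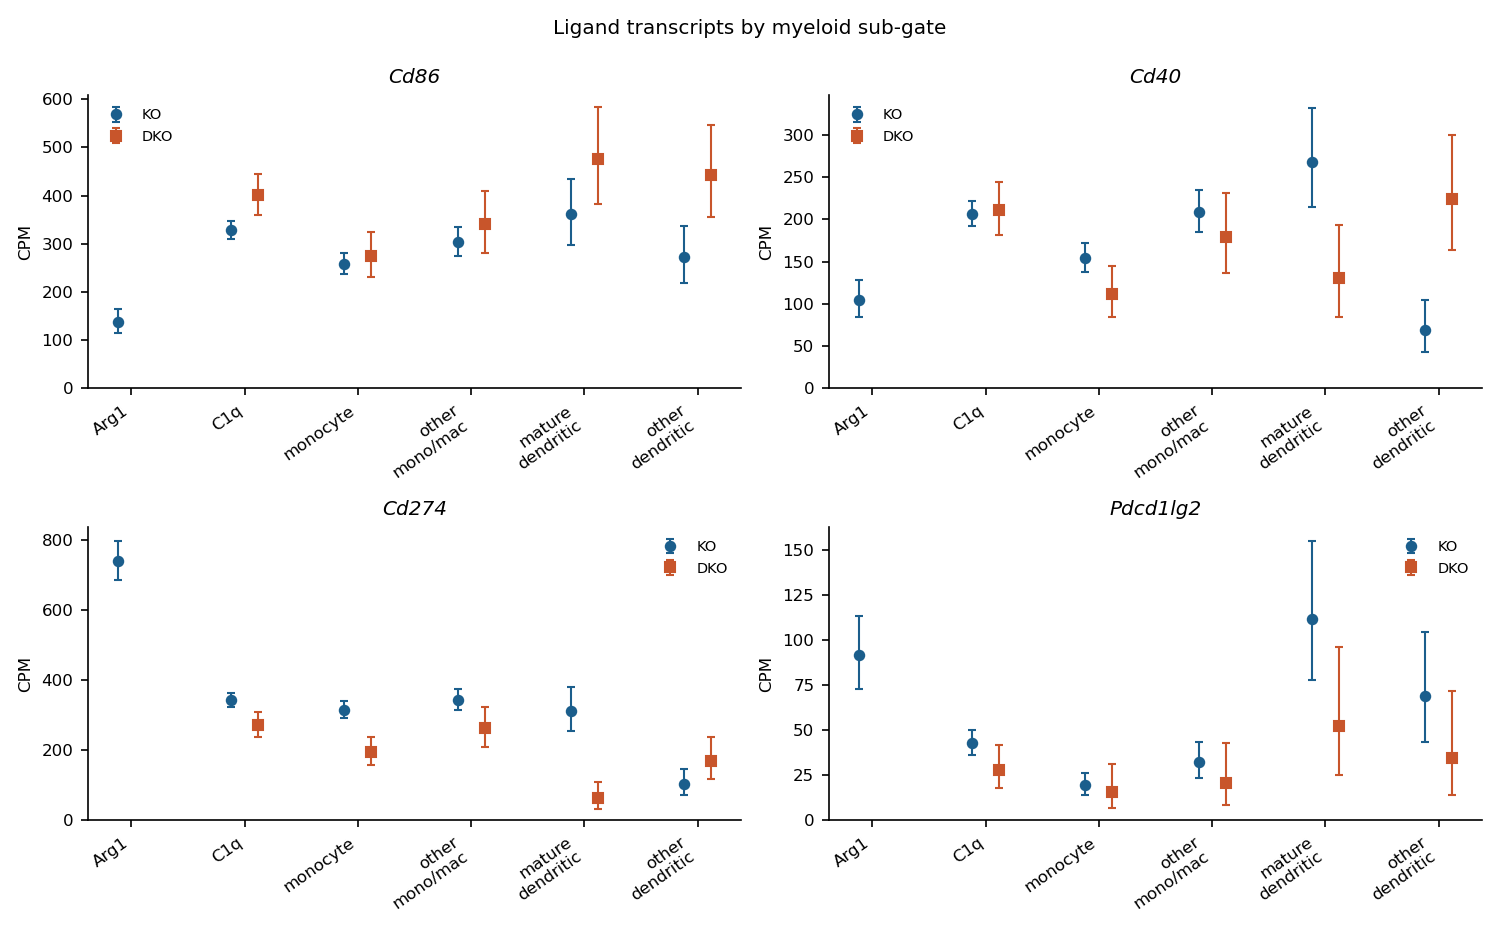
Level of Cd86, Cd40, Cd274 and Pdcd1lg2 in CPM (vertical axes from 0) in the 4 monocyte/macrophage and 2 dendritic sub-gates, for the KO library (circles) and the DKO library (squares), with exact 95% Poisson intervals; no DKO cell fell in the Arg1 sub-gate. Cd274 stands at 741 CPM and Cd86 at 139 CPM in the Arg1 cells, and the Cd274 and Cd40 points of the 2 dendritic sub-gates (mature and other) lie in opposite order between the libraries.

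The PD-1 ligand genes are neighbours, so their promoter windows are shown. In GRCm38, the assembly behind the mm10 build of the files, Cd274 lies at chr19:29367455-29388095 and Pdcd1lg2 at chr19:29410919-29471161, both protein-coding on the + strand with a gap of 22823 bases and 0 other protein-coding genes between. Pdcd1lg2 overlaps the antisense gene A930007I19Rik, and whether the counting used strand is not given in the sources used here, so its reads may include some of that gene. The RefSeq promoter table (build GRCm38.p6) holds windows from 250 bases before to 50 bases after the start for 5 of the 10 members: Cd80, Cd274, Pdcd1lg2, Icosl and Ctla4. Both windows below are on the + strand, Cd274 at chr19:29367188-29367487 and Pdcd1lg2 at chr19:29410669-29410968, and capitals mark a match to the interferon-type repeat (Cd274) or the NF-kB consensus (Pdcd1lg2).
Cd274: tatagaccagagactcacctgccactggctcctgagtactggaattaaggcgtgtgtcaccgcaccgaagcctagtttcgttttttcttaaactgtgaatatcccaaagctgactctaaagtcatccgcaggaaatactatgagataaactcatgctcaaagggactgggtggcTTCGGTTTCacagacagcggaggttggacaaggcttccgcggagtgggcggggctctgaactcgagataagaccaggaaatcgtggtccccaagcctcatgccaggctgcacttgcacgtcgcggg
Pdcd1lg2: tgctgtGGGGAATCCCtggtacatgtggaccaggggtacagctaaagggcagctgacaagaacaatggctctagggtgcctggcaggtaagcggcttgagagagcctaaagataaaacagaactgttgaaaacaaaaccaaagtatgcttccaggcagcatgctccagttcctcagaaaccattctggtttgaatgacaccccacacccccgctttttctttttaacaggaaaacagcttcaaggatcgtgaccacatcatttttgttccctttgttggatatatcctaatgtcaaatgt
The motifs searched, on both strands, were the interferon-gamma-type element TTCNNNGAA, the interferon-type repeat GAAANNGAA and the NF-kB consensus, which occur in 8.30%, 8.56% and 26.8% of 32851 promoter windows. The repeat in Cd274 starts 76 bases before the transcription start, on the other strand, and it was also found in Ctla4. With 1 more A at its end it was found in 0 of the 5 member windows, as was the first element. The NF-kB consensus was found in Pdcd1lg2, 244 bases before the start and on both strands, and in Icosl. The remaining members lie at chr16:38455561-38496335 (Cd80), chr16:36603869-36666081 (Cd86), chr2:165055627-165072948 (Cd40), chr10:78069302-78083913 (Icosl) and chrX:57212143-57224042 (Cd40lg), all protein-coding. The Ctla4 window (chr1:60908775-60909074) and the Cd80 window (chr16:38458683-38458982) lie inside the gene spans given in this report. Their RefSeq starts thus differ from the first base of those spans.

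In the dendritic cell gate the same pair of genes was lower in DKO and Cd86 was at a higher level. Of the 5 ligands with enough UMIs, 0 were at least 1.5-fold higher and 2 at least 1.5-fold lower in DKO, against 11.5% and 17% of 4371 genes. The median log2 ratio was 0.08 over the ligands and -0.05 over all genes. Cd274 had 131 UMIs in 46 of 67 KO cells and 46 UMIs in 20 of 38 DKO cells, or 208 and 117 CPM, giving a log2 ratio of -0.81 (interval -1.34 to -0.33). Pdcd1lg2 had 57 and 17 UMIs, or 90.3 and 43.4 CPM, giving a log2 ratio of -1.03 (interval -1.93 to -0.26). Cd86 had 200 and 180 UMIs, or 317 and 460 CPM, giving a log2 ratio of 0.54 (interval 0.24 to 0.83). The gate asked for 2 markers, and 31 KO and 17 DKO cells had no more than that. Cd14 was found in 32 KO and 16 DKO cells of the gate, Flt3 in 27 and 16. Monocyte/macrophage markers summed to 515 and 539 CPM, against 6184 and 6793 CPM in the monocyte/macrophage gate. The epithelial marker Epcam, which some dendritic cells also express, was at 20.6 CPM in KO against 156 CPM in DKO cells of this gate. The part of other cell types in these differences was not tested.

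The dendritic gate was divided into a mature sub-gate and the rest. Mature cells had a UMI of Ccr7, the receptor that guides mature dendritic cells to lymph nodes, and at least 1 of Fscn1, Ccl22, Cacnb3 and Il4i1, and they numbered 33 in KO and 17 in DKO, the others 34 and 21. Ccr7 itself was found in 57 of the 67 KO and 33 of the 38 DKO cells of the gate, so most of the other cells had it too. It was not confined to this gate, with a UMI in 267 KO and 44 DKO cells of the monocyte/macrophage gate. In the mature sub-gate Cd274 was at 313 CPM in KO against 62.8 CPM in DKO (98 and 12 UMIs), giving a log2 ratio of -2.27 (interval -3.32 to -1.45). In the other dendritic cells it was at 104 and 169 CPM (33 and 34 UMIs), giving a log2 ratio of 0.71 (interval -0.03 to 1.44), of which 11 of the 34 DKO UMIs came from 1 cell. Without the top cell of each library that value was 0.37, below 1.5-fold. Cd40 split in the same way, at 268 and 131 CPM in the mature sub-gate (log2 -1.02, -1.74 to -0.38) and at 69.2 and 224 CPM in the others (log2 1.68, 0.93 to 2.50). The difference between the sub-gates was not tested. Pdcd1lg2 was lower in DKO in both, with log2 ratios of -1.05 (-2.27 to -0.05) and -0.92 (-2.46 to 0.29). Cd80 stayed within 1.5-fold in both, with log2 ratios of 0.11 (-0.57 to 0.75) and 0.07 (-0.67 to 0.77).

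Neutrophils carried the highest Cd274 level, and it was lower in DKO. The interval of its ratio overlapped that of dendritic cells and, narrowly, that of monocytes/macrophages (-0.77 to -0.48). Cd274 had 476 UMIs in 112 of 135 KO cells and 57 UMIs in 19 of 40 DKO cells, or 1753 and 800 CPM, giving a log2 ratio of -1.12 (interval -1.55 to -0.73). In this gate 25.8% of 1826 genes were at least 1.5-fold lower and 14% at least 1.5-fold higher in DKO. The share of cells with a Cd274 UMI was 83.0% (75.5 to 88.9) in KO against 47.5% (31.5 to 63.9) in DKO, and 83.7% of 92 cells and 41.7% of 24 cells after thinning to 1500 UMIs. The 6 gate markers summed to 79239 CPM in KO against 137320 CPM in DKO neutrophils, and the part of this shift in the Cd274 ratio was not tested. Monocyte/macrophage markers were at 5358 and 7098 CPM in this gate. Nearly all of that was Cd14 (4927 and 6916 CPM), which neutrophils also express, and the KO cells held 20 UMIs of C1qa and the DKO cells 0. Cd80 had 57 and 13 UMIs, giving a log2 ratio of -0.16 (interval -1.20 to 0.68), and the other 4 ligands had fewer than 20 UMIs.

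In B cells, Cd86 was the member with the most UMIs and was higher in DKO. It had 103 UMIs in 62 of 198 KO cells and 131 UMIs in 79 of 156 DKO cells, or 160 CPM (130 to 194) and 299 CPM (250 to 354), giving a log2 ratio of 0.90 (interval 0.52 to 1.29). It was the 1 of 3 ligands with enough UMIs past 1.5-fold, and 16.2% of 5064 genes were at least 1.5-fold higher in DKO B cells and 8.08% lower. TMM scaling shifted ratios in this gate by -0.17 and turned the split of all genes from 822 higher and 409 lower to 498 and 636. Thinned to 1500 UMIs, 19.0% of KO and 36.4% of DKO B cells had a Cd86 UMI, against 0.358% and 0% of T cells, the latter allowing a share of up to 2.86%. Plasma cell markers moved with this result: their 4 genes summed to 7323 CPM in KO against 773 CPM in DKO. In KO this was mostly Jchain, with 3762 of 4725 UMIs in 10 cells. In DKO Jchain gave 75 of 339 UMIs and Mzb1 gave 203. Of the B cells, 9 KO and 3 DKO cells had 10 or more UMIs of these markers. Without those cells Cd86 was at 195 and 323 CPM, giving a log2 ratio of 0.72. With 1 more marker asked of each cell the ratio was 0.42, below 1.5-fold. Cd40 had 17 and 10 UMIs (log2 -0.18, -1.5 to 1.0) and Cd274 had 22 and 17 (log2 0.19, -0.82 to 1.16), which this depth cannot tell from no difference.

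**Figure D3:**
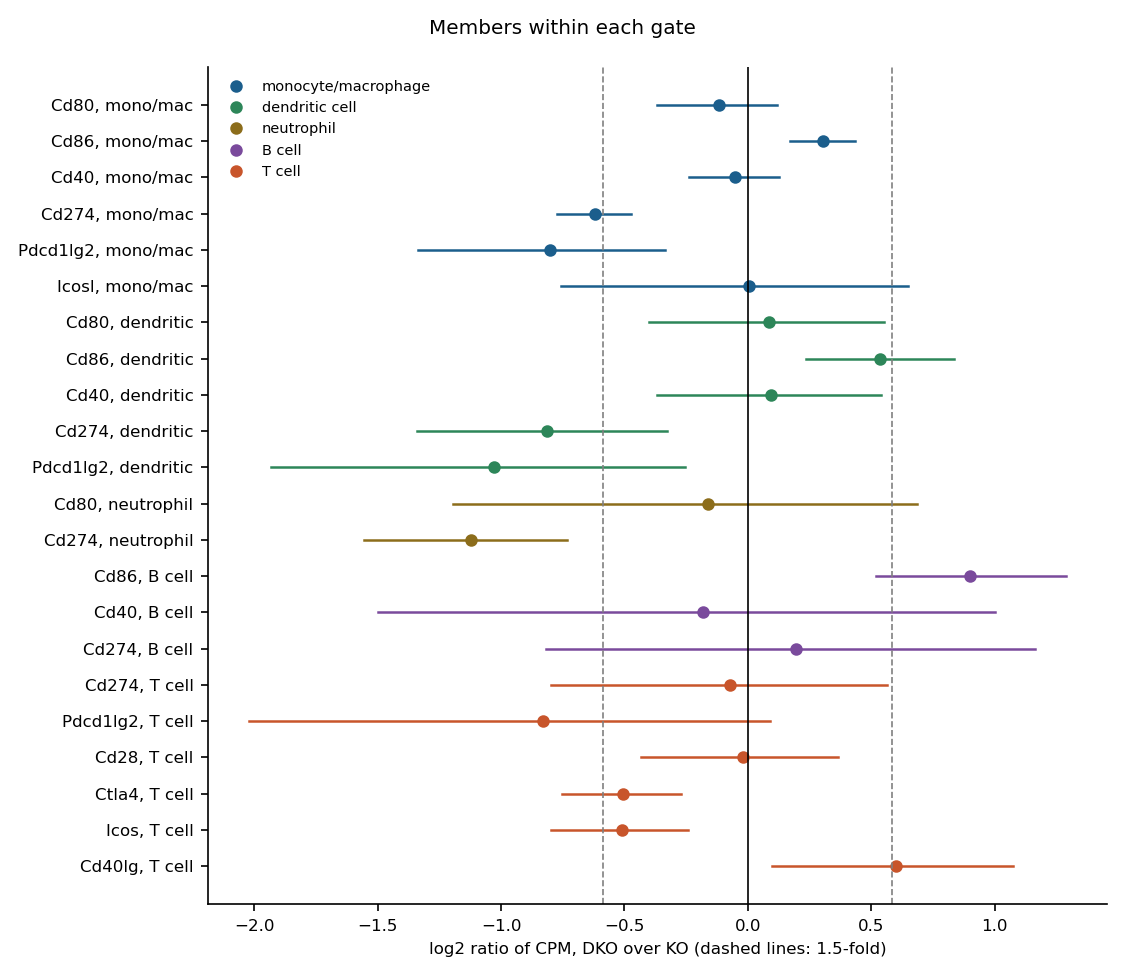
Log2 ratio of CPM, DKO over KO, of each member with at least 20 UMIs in a gate (points, coloured by gate) with its exact 95% counting interval (lines); dashed lines mark 1.5-fold and the solid line no difference. Cd274 lies at -0.62, -0.81 and -1.12 in monocytes/macrophages, dendritic cells and neutrophils, and Cd86 at 0.30, 0.54 and 0.90 in monocytes/macrophages, dendritic cells and B cells.

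On the T cell side, Ctla4 and Icos were at lower levels in DKO, Cd28 was at much the same level and Cd40lg was higher. Of the 4 members, 1 was at least 1.5-fold higher and 0 at least 1.5-fold lower in DKO, against 10.9% and 20.1% of 6553 genes. The median log2 ratio was -0.26 over the members and -0.07 over all genes. Cd28, the activating receptor for CD80 and CD86, had 227 and 70 UMIs, or 170 and 167 CPM, giving a log2 ratio of -0.02 (interval -0.43 to 0.37). Ctla4, its inhibitory counterpart, had 798 UMIs in KO and 176 in DKO, or 597 CPM (557 to 640) and 420 CPM (360 to 486), giving a log2 ratio of -0.51 (interval -0.75 to -0.27). Icos had 601 and 132 UMIs, or 450 and 315 CPM, also a log2 ratio of -0.51 (-0.80 to -0.24). Both intervals excluded 0 and neither point passed 1.5-fold, though Ctla4 stayed short of it in only 6 of 9 alternative settings. Cd40lg, which encodes the ligand of CD40, had 114 and 54 UMIs, or 85.3 and 129 CPM, giving a log2 ratio of 0.60 (interval 0.10 to 1.07). This call rests on a few cells, since without the top cell of each library the ratio was 0.44.

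The share of T cells with a UMI differed most between libraries for Ctla4. A Ctla4 UMI was found in 62.5% of the KO (56.6 to 68.2) and 31.4% of the DKO cells (22.7 to 41.2), and after thinning in 42.3% of 279 and 22.9% of 105 cells. For Icos the shares were 55.8% and 37.1%, or 35.1% and 22.9% after thinning. For Cd28 they were 39.9% and 35.2%, or 17.9% and 21.9%. The thinned background in monocytes/macrophages was 4 of 1308 KO cells for Ctla4 (0.306%) and 0 for Cd28, Icos and Cd40lg. Cd40lg was found in 0 of 1351 KO and 0 of 281 DKO cells of that gate, which allows shares of up to 0.222% and 1.07%.

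The T cell members were spread unevenly over T cells, and the libraries held different mixes of them. The Foxp3 sub-gate, named for the transcription factor of regulatory T cells, held 21 KO and 4 DKO cells, the Cd4 sub-gate 54 and 8, the Cd8 sub-gate 69 and 16, and the rest, with none of these calls, 139 and 77. In KO, Ctla4 was at 1541 CPM (1305 to 1808) in Foxp3 cells, where all 21 had a UMI, then at 1009 CPM in Cd4, 477 CPM in other and 241 CPM in Cd8 cells, and no intervals met. Icos followed the same order, at 1317, 703, 389 and 142 CPM. Cd28 was highest in Cd4 (303 CPM) and Foxp3 cells (265 CPM), which did not differ beyond counting error, and lowest in Cd8 cells (81.2 CPM). Cd40lg was found in 23 of 54 Cd4 cells (171 CPM), in 3 of 69 Cd8 cells and in 0 of 21 Foxp3 cells, the last allowing a share of up to 14.3%.

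Within sub-gates the DKO library rests on few cells. In the other T cells, the largest group, Ctla4 was at 477 CPM in KO against 253 CPM in DKO, giving a log2 ratio of -0.91 (interval -1.31 to -0.54), and Icos at 389 and 233 CPM, giving a log2 ratio of -0.73 (interval -1.15 to -0.34). In the other sub-gates Icos did not pass 1.5-fold, with log2 ratios of -0.03 (-0.72 to 0.56) in Foxp3, 0.04 (-0.61 to 0.60) in Cd4 and 0.07 (-1.20 to 1.03) in Cd8 cells. Ctla4 in Cd4 cells had a log2 ratio of -0.33 (-0.94 to 0.18). In Cd8 cells Ctla4 was at 241 and 111 CPM, giving a log2 ratio of -1.03 (interval -2.47 to -0.02), with 7 UMIs in DKO. In Foxp3 cells Ctla4 was at 1541 and 3069 CPM, giving a log2 ratio of 1.0 (interval 0.55 to 1.43). Of its 63 UMIs in DKO, 34 came from 1 of the 4 cells, and without the top cells the ratio was 0.28. Cd28 and Cd40lg in other T cells had log2 ratios of 0.16 (-0.39 to 0.67) and 0.23 (-0.40 to 0.83). Cd40lg in Cd4 cells was at 171 and 407 CPM, but 13 of its 16 DKO UMIs came from 1 cell.

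**Figure D4:**
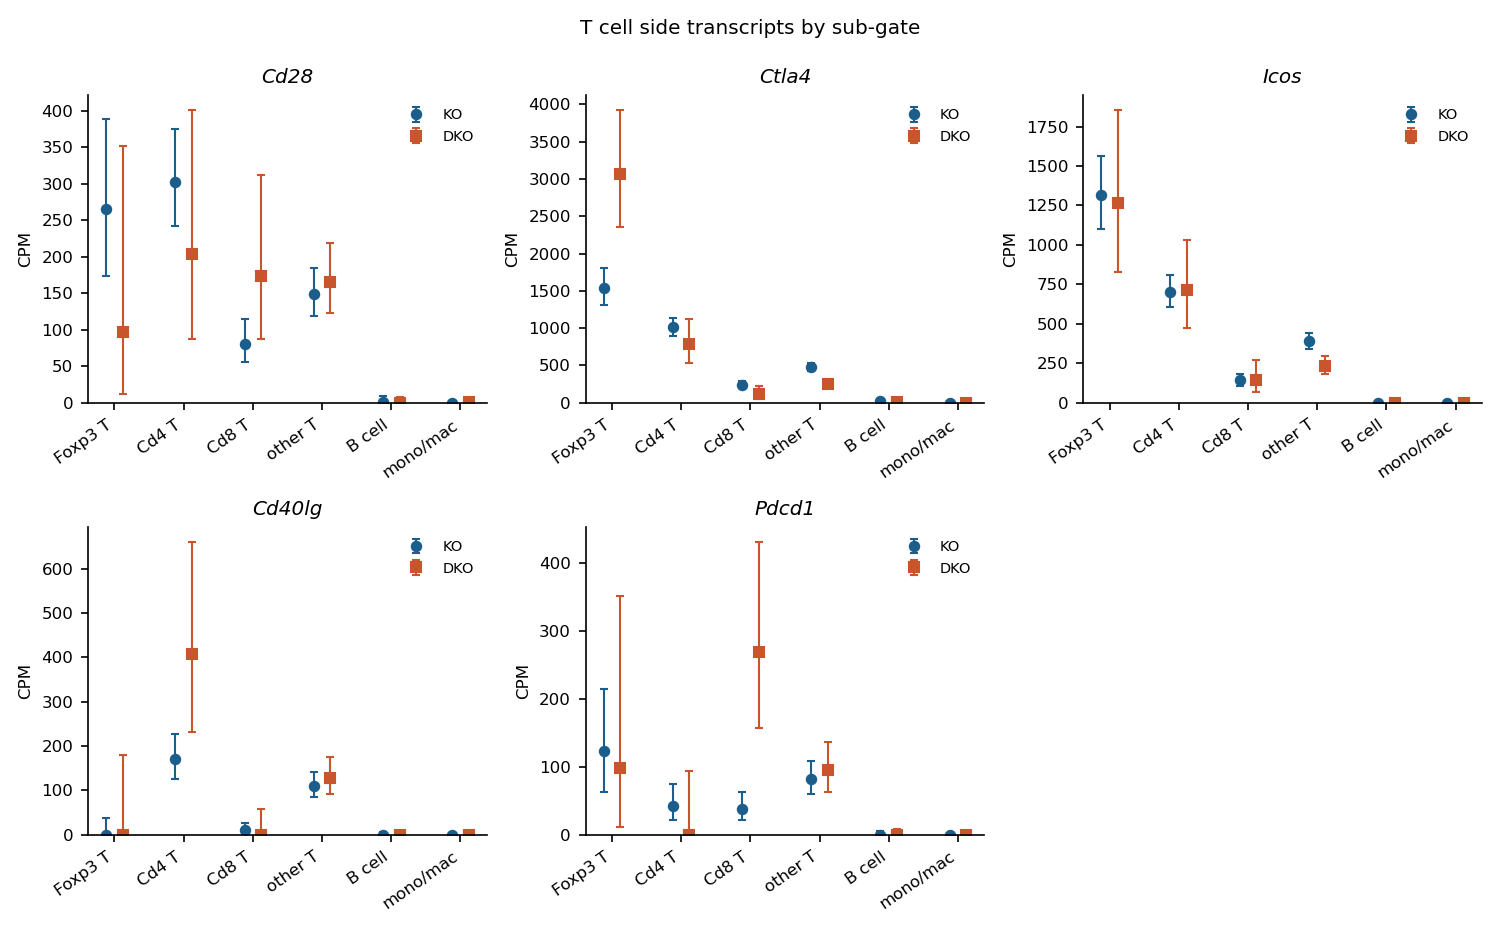
Level of Cd28, Ctla4, Icos, Cd40lg and the PD-1 gene Pdcd1 in CPM (vertical axes from 0) in the 4 T cell sub-gates and, as background, in the B cell and monocyte/macrophage gates, for the KO library (circles) and the DKO library (squares), with exact 95% Poisson intervals. Ctla4 and Icos step down from Foxp3 through Cd4 and other to Cd8 cells in KO (Ctla4 from 1541 to 241 CPM), and the DKO Foxp3 points rest on 4 cells.

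Detection of the T cell members in the same cells is read against the share of all T cells with Ctla4, 62.5% in KO and 31.4% in DKO. Of the T cells with Icos, 79.1% in KO (125 of 158) and 64.1% in DKO (25 of 39) also had Ctla4. Of those with Cd28 the shares were 69.9% (79 of 113) and 45.9% (17 of 37), the first close to the share of all T cells. Of those with Cd40lg they were 86.7% (39 of 45) and 61.5% (8 of 13). These counts depend on depth, were not thinned and were not tested. Cd28 (chr1:60716800-60773359), Ctla4 (chr1:60887000-60915832) and Icos (chr1:60977927-61000320) lie in a row in GRCm38, with gaps of 113640 and 62094 bases and 0 protein-coding genes between them.

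T cells also held transcripts of the PD-1 ligands. Cd274 had 85 UMIs in 60 of 283 KO cells and 25 UMIs in 16 of 105 DKO cells, giving a log2 ratio of -0.07 (interval -0.80 to 0.56). In KO it was at 306 CPM in Foxp3 cells and between 42.8 and 46.2 CPM in the other sub-gates, but 12 of the 30 UMIs in Foxp3 cells came from 1 cell. Pdcd1lg2 had 59 UMIs in 42 cells of KO and 10 in 8 cells of DKO, or 44.2 and 23.8 CPM, giving a log2 ratio of -0.83 whose interval (-2.02 to 0.09) held 0. Macrophage markers in the T cell gate summed to 49.4 CPM in KO against 57.2 CPM in DKO, against 6184 and 6793 CPM in the monocyte/macrophage gate. Pdcd1, the gene of their receptor PD-1, had 85 UMIs in 39 KO and 47 UMIs in 14 DKO T cells, or 63.6 and 112 CPM, giving a log2 ratio of 0.82 (interval 0.27 to 1.35).

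Other genes of the same signalling families were read from lists of 14 ligand-side and 14 receptor-side genes. In monocytes/macrophages, 10 of the 14 had enough UMIs, of which 1 was at least 1.5-fold higher and 0 lower in DKO, beside the 12.4% and 8.72% of all genes. Tnfsf14 (LIGHT, a ligand of the TNF family) had 55 and 26 UMIs, giving a log2 ratio of 1.18. The next highest were Cd48, an adhesion ligand of CD2 and CD244, at 0.41 (646 and 180 UMIs) and Lgals9, which encodes galectin-9, at 0.35 (552 and 148 UMIs). The lowest were Tnfrsf14 at -0.56 (24 and 3 UMIs), Nectin2 at -0.53 (85 and 12 UMIs) and Pvr at -0.13 (350 and 67 UMIs); the last of these and Nectin2 encode ligands shared by TIGIT and CD226.

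In T cells, 12 of the 14 receptor genes had enough UMIs, and 2 were at least 1.5-fold higher and 7 lower in DKO, against 10.9% and 20.1% of all genes. Their median log2 ratio was -0.77, beside -0.07 over all genes. The highest were Pdcd1 at 0.82, Cd27, a TNF receptor of naive and memory T cells, at 0.63 (167 and 81 UMIs), and Tigit at 0.41 (27 and 11 UMIs). The lowest were Cd226, the activating rival of TIGIT, at -1.95 (55 and 4 UMIs), Havcr2 (TIM-3) at -1.79 (27 and 2 UMIs) and Lag3 at -1.01 (54 and 8 UMIs). Chosen after their values were seen, because they had more UMIs than these, Tnfrsf4 (OX40) had 707 and 114 UMIs and a log2 ratio of -0.96 (-1.26 to -0.67), and Tnfrsf9 (4-1BB) had 366 and 64 UMIs and a log2 ratio of -0.83 (-1.25 to -0.46). The inhibitory receptors thus stood on both sides, with Pdcd1 higher and Lag3 and Havcr2 lower. The DKO gate held a smaller share of cells called Foxp3 or Cd4. Without those sub-gates 2 of 11 receptors with enough UMIs were higher and 6 lower, Ctla4 was at -0.73 and Cd28 at 0.47. The share of all genes past 1.5-fold is not given for that reduced set of cells. Whether 6 of 11 stands out there can therefore not be read.

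**Figure D5:**
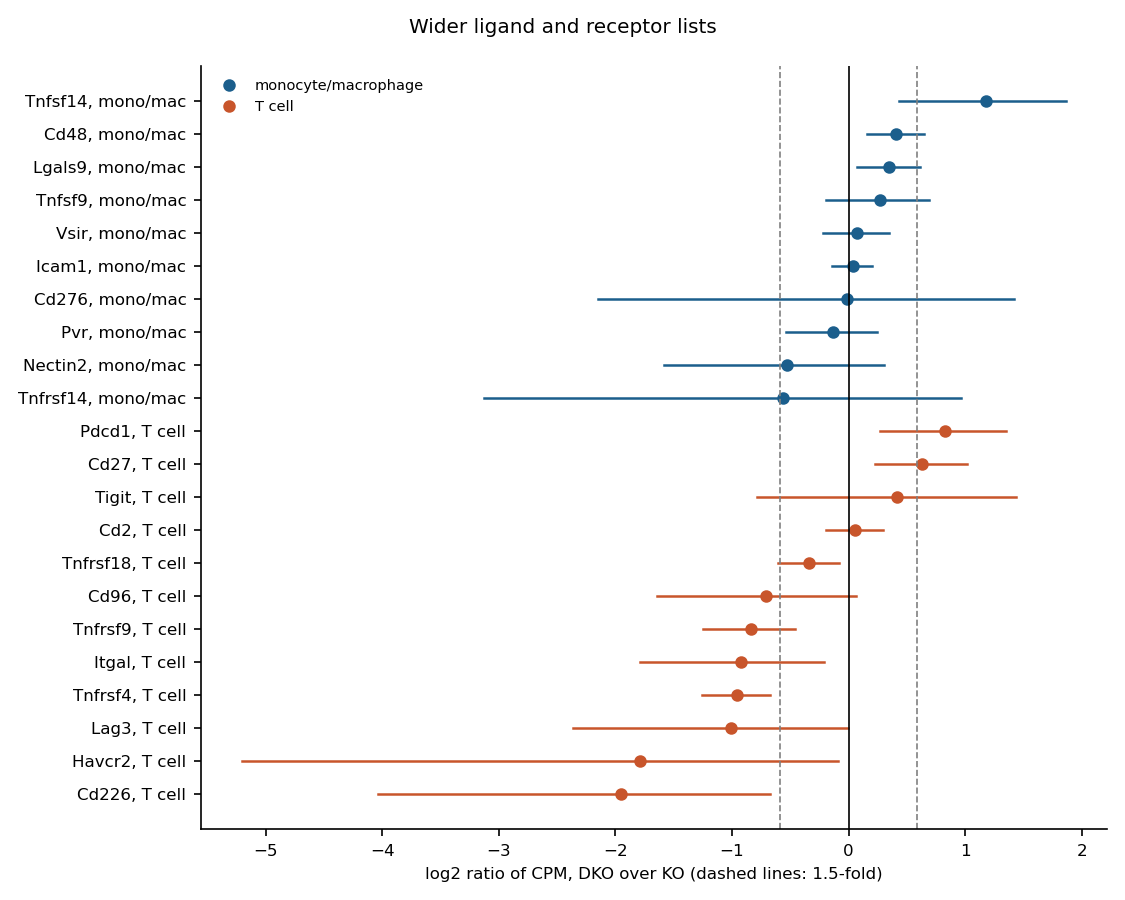
Log2 ratio of CPM, DKO over KO, of the wider ligand list in monocytes/macrophages and the wider receptor list in T cells (points) with exact 95% counting intervals (lines); dashed lines mark 1.5-fold. Of the 12 receptors, 7 lie below the lower dashed line, from Cd226 at -1.95 to Cd96 at -0.70, and Pdcd1 and Cd27 lie above the upper one.

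The genes most like each member over 19 gate and sub-gate profiles were named by Pearson's r of log2(CPM + 10). They were sought among 7707 genes, as a description, since the profiles share libraries and several are sub-gates of the same gate. For Cd80 these were Il1b (0.989) and Csf2rb (0.970), for Cd86 the MHC class II genes Cd74 (0.984) and H2-Eb1 (0.980), and for Cd40 Zfp516 (0.965) and Ctsz (0.946). Cd274 was most like Ccrl2 (0.942) and the interferon-induced GTPase gene Gbp5 (0.932). The closest genes to Pdcd1lg2, Rhoc (0.735) and Egln3 (0.722), and to Icosl, Dnajb5 (0.838) and Zfp263 (0.788), followed them less tightly. Cd28 was most like Icos (0.991) and Camk4 (0.989), Ctla4 like Icos (0.985) and Il18r1 (0.980), and Icos in turn like Cd28 and Ctla4. Cd40lg was most like Lef1 (0.959), a transcription factor of naive T cells, and Trat1 (0.913).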

How the data were processed

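Single-cell 3′ libraries (Chromium v3.1) were processed by the authors with Cell Ranger 6.0.1 and Seurat 4.3.0 on mm10, per the labels, and the deposited matrices hold whole-number UMI counts per gene and barcode, with no normalization. Whether strand was used in counting is not given in the sources used here. The cell filter asked for 300.0 to 5000 genes and a mitochondrial share of at most 10%, and cells were gated by the number of markers with a UMI (monocyte/macrophage 3 of 11, neutrophil 3 of 6, dendritic 2 of 8, B and T 2 of 6). Cells passing gates of more than 1 lineage (26 KO, 4 DKO) were left out, as were 383 and 106 ungated cells. UMIs were summed per gate and library, 0.5 counts were added for log2 ratios, and a gene needed 20 UMIs over both libraries to be read against 1.5-fold. Poisson, binomial and conditional intervals were exact. PCR copies are merged by UMIs, but molecules of 1 cell are not independent. Doublets were kept in the reported values, and leaving out the highest 5% of Scrublet scores was an alternative.

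The members and lists were chosen with earlier results of these data known. Genes named were all members, Pdcd1, the 3 highest and 3 lowest of each wider list, the 2 genes most like each member, and Cers2, Il10rb and Il10ra. Il10ra gave 864 and 233 UMIs. Scripts ran in Python 3.11.15 with scanpy 1.11.5, and in R 4.3.3 with Seurat 5.3.0 (clusters) and edgeR 4.0.16 (TMM factors), and were tested on simulated data. Alternatives were TMM scaling, no cell filter, 1 more marker per gate, clusters in place of gates, doublet removal, 1 count added, the top cell left out, a minimum of 1 UMI, and changes to the sub-gates.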

Additional observations from a re-analysis of the deposited data

Results flagged for a closer look

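Some members stood past 1.5-fold in opposite directions in sub-gates of the same gate; in none of these cases was the difference between sub-gates tested, and chance in small cell numbers was not assessed. Among dendritic cells, the log2 ratio of DKO over KO was -1.02 for Cd40 in the mature sub-gate and 1.68 in the others, most of which also had a Ccr7 UMI, and it was -2.27 and 0.71 for Cd274. Without the top cell of each library these became -0.86 and 2.22 for Cd40 and -2.63 and 0.37 for Cd274, so the higher Cd274 value no longer passed 1.5-fold. Among T cells, Cd28 had -1.15 (-4.57 to 0.55) in Foxp3 cells and 1.14 (-0.04 to 2.13) in Cd8 cells, on 2 and 11 DKO UMIs. Both of these intervals held 0. Ctla4 had 1.0 in Foxp3 cells, -1.03 in Cd8 cells and -0.91 in the other T cells, and the Foxp3 value was 0.28 without the top cells.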

How the results depend on the processing

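No paired analysis was possible because there was 1 library per genotype. For the ligands in monocytes/macrophages, the 2 past 1.5-fold became 1 with 1 more marker per gate, 0 without the Arg1 sub-gate and 0 with DKO sub-gates weighted as in KO. In dendritic cells, 2 became 4 with clusters in place of gates and 4 without the mature sub-gate, where Cd274 turned from -0.81 to 0.71; that cluster's gated cells were dendritic in 65.7% only. In B cells, 1 became 2 with clusters. With 1 more marker the single call in B cells and that on the T cell side were each of a gene lower in DKO (Cd40 at -0.62 and Ctla4 at -0.94). On the T cell side, 1 became 2 without each gene's top cell, both lower, and 2 without the Foxp3 and Cd4 sub-gates. The wider ligand count of 1 became 3 with TMM, a minimum of 1 UMI or no Arg1 sub-gate, 2 with 1 more marker, clusters, doublet removal or weighting, and 4 without top cells; the cause was not tested. The wider receptor count stayed within 1.5 times of 9 under every alternative run. Over all alternatives, 46 counts stayed within 1.5 times and 16 did not, and of the single values 202 stayed within counting error, 48 moved beyond it, mostly thinned shares, and 1 reversed. Cd274 in monocytes/macrophages ranged from -0.74 (TMM) to -0.44 over 10 alternatives, Pdcd1lg2 from -1.004 to -0.53, and Ctla4 in T cells from -0.94 to -0.30 over 9. The alternatives without the mature dendritic, or the Foxp3 and Cd4, sub-gates, without cells holding 2 UMIs of another lineage, without plasma-marked cells, and the sub-gate values without top cells were chosen after seeing the data. TMM also moved the neutrophil split from 255 higher and 471 lower to 181 and 562.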
